A study of Mus musculus with 12 samples.

Results

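The genes described here are the mouse Zfp genes on array C of the Affymetrix murine genome U74 set, taken as every probe set whose platform annotation gives a single gene symbol that begins with Zfp and a digit. The rule found 133 probe sets for 109 genes among the 11868 probe sets of the array that are not controls. All were read in the hippocampus of mice lacking CREB and CREM and of control mice, 1 hour after kainate or saline was injected. Of the 133 probe sets, 52 (39.1%), for 46 genes, reached a log2 level of 4 on 3 or more of the 12 arrays, and 81 did not.

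Most Zfp genes encode C2H2 zinc finger proteins, in which each finger folds around a zinc ion and reads a short stretch of DNA, so that a row of fingers gives a protein its own target sequence. Many of them also carry a KRAB domain, which recruits the co-repressor TRIM28 and silences chromatin, in particular at transposable elements. Others bind RNA or double-stranded RNA, or act in complexes with other proteins, so the shared symbol marks a fold and a naming convention and not a common task.

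The study asked what the loss of CREB and CREM, a pair of transcription factors that bind the cAMP response element, does to the hippocampal response to kainate, an agonist of glutamate receptors that causes seizures. The 4 groups were mutant mice given kainate (20 mg/kg into the peritoneum), mutant mice given saline, control mice given kainate and control mice given saline, with 3 arrays in each. All mice were littermates of both sexes, 5 to 6 weeks old, housed alone and handled for 5 days beforehand, and each array carried RNA pooled from 3 animals. The alleles and any Cre line behind the mutants, and the exact genotype of the controls, are not stated in the sources used, so how many cells had lost the factors is not known.

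The values are GCRMA signals on the log2 scale, in which a difference of 1 is a doubling of signal. Probe sets differ in how well they bind, so a higher signal for one gene than for another is not an order of RNA amounts. In pooled tissue, fewer cells with a transcript and less transcript per cell cannot be told apart. Signal at hippocampal neuron markers was present, with mean levels of 8.05 for C1ql3, 8.0 for Slc17a7 and 4.48 for Cpne4, the 3 genes of that list on the array. A second probe set of Slc17a7 stayed below the level, at 1.82.

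Some arrays stood apart before any Zfp gene was considered. On the first principal component, with 53.2% of the variance, mutant kainate replicate 3 was apart from the 11 other arrays, and the replicate 1 arrays had the 4 highest scores on the second (22.9%). Differences taken in replicate 1 alone, and in replicates 2 and 3 together, are therefore given beside the pooled ones. Gfap, an astrocyte gene, read 12.82, 13.03 and 11.55 on the mutant kainate arrays, 12.23 to 13.00 on mutant saline, 11.51, 11.53 and 12.95 on control kainate, and 10.75 to 11.59 on control saline. On this gene mutant kainate replicate 3 lay within the range of control saline. The array labelled control kainate replicate 3 lay among the other mutant values, which were 12.23 or more. Signal on mutant kainate replicate 3 was compressed, with an SD over its probe sets of 1.52, against 1.71 to 1.78 on the 11 other arrays. The part of this in its Gfap value was not tested. Creb1 at its one probe set above the level ran from 4.83 to 5.11 on mutant arrays and from 4.77 to 5.00 on control arrays. Crem ran from 4.51 to 4.83 on mutant arrays and from 4.37 to 4.57 on control arrays, so neither signal was lower in the mutants. Where these probe sets lie relative to the deleted parts was not examined here.

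Because CREB and CREM bind TGACGTCA, the promoters of the Zfp genes were searched for this palindrome and for its shorter form, TGACG or CGTCA, on both strands. Windows from 250 bases before to 50 bases after the start, from RefSeq on build GRCm38.p6, were matched for 92 of the 109 genes. Any full site also holds the short form on both strands. The full site stood in 4 of the 92 genes (4.35%), against 549 of 27025 genes in the promoter table (2.03%), and the short form in 32 (34.8%) against 6228 (23.0%). Among the 36 matched genes that reached log2 4 the full site stood in 1 and the short form in 12 (33.3%). The 4 windows with a full site are printed 5′ to 3′ on the strand of the gene, because they are the Zfp promoters that carry the sequence which the deleted factors recognise. Capitals mark each full or short site.
Zfp266: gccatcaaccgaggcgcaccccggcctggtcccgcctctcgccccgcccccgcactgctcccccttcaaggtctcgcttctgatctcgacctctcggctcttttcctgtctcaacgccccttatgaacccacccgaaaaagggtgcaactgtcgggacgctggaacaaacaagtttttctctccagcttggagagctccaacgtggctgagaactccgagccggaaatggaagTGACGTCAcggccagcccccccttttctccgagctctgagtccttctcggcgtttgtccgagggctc
Zfp367: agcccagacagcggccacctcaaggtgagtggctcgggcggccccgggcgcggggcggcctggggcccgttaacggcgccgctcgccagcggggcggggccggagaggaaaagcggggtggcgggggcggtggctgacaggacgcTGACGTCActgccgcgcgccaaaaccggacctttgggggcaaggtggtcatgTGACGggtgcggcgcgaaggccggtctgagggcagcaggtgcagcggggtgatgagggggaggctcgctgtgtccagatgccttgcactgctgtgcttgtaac
Zfp595: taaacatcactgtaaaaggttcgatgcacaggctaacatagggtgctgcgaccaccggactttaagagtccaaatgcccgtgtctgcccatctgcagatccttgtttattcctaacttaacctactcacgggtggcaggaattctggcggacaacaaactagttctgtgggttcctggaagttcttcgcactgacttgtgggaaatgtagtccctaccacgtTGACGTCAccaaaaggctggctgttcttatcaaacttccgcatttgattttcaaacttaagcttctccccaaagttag
Zfp868: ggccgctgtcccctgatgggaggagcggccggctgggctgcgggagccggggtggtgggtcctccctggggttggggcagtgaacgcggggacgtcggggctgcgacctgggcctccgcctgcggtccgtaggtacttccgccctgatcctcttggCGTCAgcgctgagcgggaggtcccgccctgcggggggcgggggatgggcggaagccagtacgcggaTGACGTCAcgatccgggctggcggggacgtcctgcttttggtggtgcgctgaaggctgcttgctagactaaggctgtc
These windows lie on the minus strand at chr9:20521370-20521669 for Zfp266, chr13:64152324-64152623 for Zfp367, chr13:67332511-67332810 for Zfp595 and chr8:69625126-69625425 for Zfp868. The full site began 17 bases before the start in Zfp266, 28 in Zfp595 and in Zfp868, and 105 in Zfp367. A match describes the letters of these windows and says nothing of binding in the hippocampus. Only Zfp266 reached log2 4 on 3 arrays, and the mean levels of the others were 3.35 for Zfp367, 3.17 for Zfp595 and 2.83 for Zfp868.

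Which Zfp genes gave a signal is the first result. The share of Zfp probe sets that reached the level, 39.1%, compares with 35.1% of the 7584 other probe sets with a single symbol and 29.8% of all. Of the 133, 39 were at log2 4 or more on every array, 13 on 3 to 11 arrays, 12 on 1 or 2 and 69 on none. For 63 genes every probe set stayed below. The median of the 133 mean levels was 3.53, against 3.32 over all probe sets, and that of the 52 above the level was 5.17, against 4.96 for all that reached it. Over the 52 probe sets 27 had a mean over 5 and 11 a mean over 6.

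**Figure D1:**
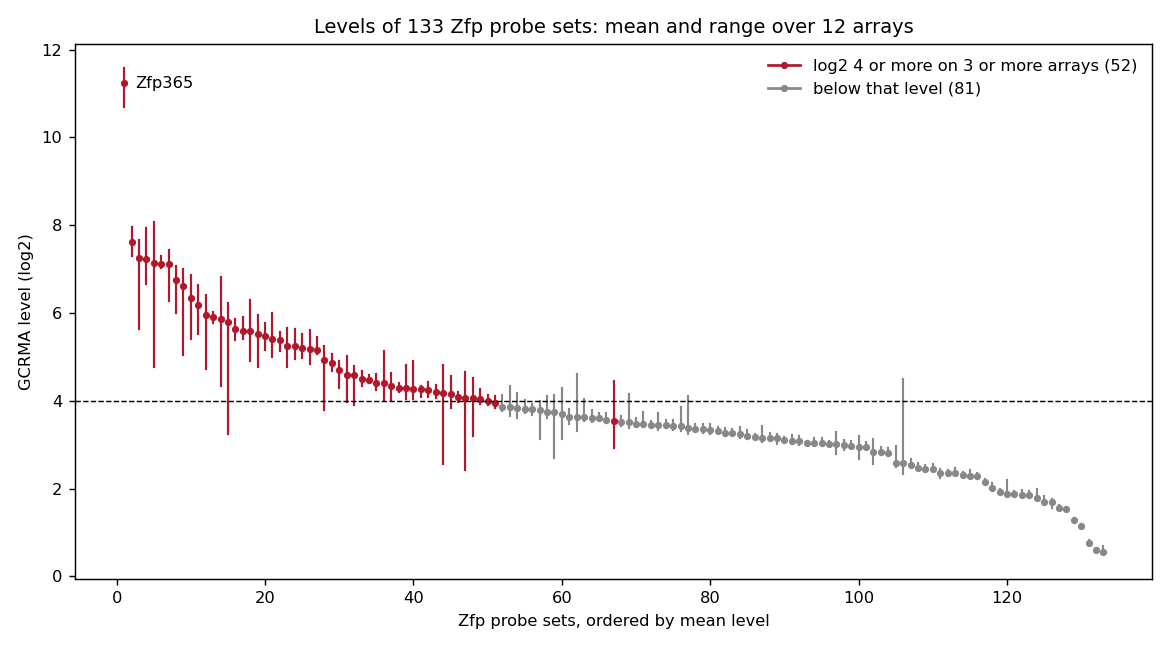
Mean log2 level of the 133 Zfp probe sets over the 12 arrays, ordered by mean (points), with the lowest and highest array (lines) and the log2 4 level marked. One probe set, for Zfp365, stands at 11.23, and 6 others lie above 7.

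Zfp365, whose human counterpart acts at the centrosome and in genome stability and whose product binds DISC1 in neurons, gave the highest signal of all Zfp probe sets. Its probe set 166820_at read 11.13, 11.04 and 10.69 on the mutant kainate arrays, 11.27, 11.05 and 11.31 on mutant saline, 11.49, 11.46 and 11.11 on control kainate, and 11.35, 11.58 and 11.33 on control saline. Its mean of 11.23 exceeded 99.8% of all probe sets on the array. Zfp148, a factor that binds GC-rich promoter elements, read 7.80, 7.45 and 7.29 on mutant kainate, 7.96, 7.39 and 7.41 on mutant saline, 7.91, 7.56 and 7.45 on control kainate, and 7.82, 7.69 and 7.66 on control saline. In all 4 groups its replicate 1 array was the highest.

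Zfp687, whose human counterpart forms a complex with ZNF592 and ZMYND8, varied little, between 7.04 and 7.29. It read 7.08, 7.10 and 7.24 on mutant kainate, 7.12, 7.29 and 7.17 on mutant saline, 7.12, 7.04 and 7.05 on control kainate, and 7.07, 7.06 and 7.11 on control saline. Zfp697 read 7.65, 7.16 and 5.65 on mutant kainate, 7.60, 7.43 and 7.52 on mutant saline, 7.36, 7.20 and 7.39 on control kainate, and 7.46, 7.31 and 7.32 on control saline, so 11 arrays lay between 7.16 and 7.65 and mutant kainate replicate 3 stood well below them. Zfp629 had a mean of 7.11 and Zfp827, whose human counterpart brings the NuRD chromatin complex to telomeres, one of 6.75.

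The remaining genes that reached the level fall into a middle and a low range of signal. Zfp809, a KRAB protein that recruits TRIM28 to the proline primer binding site of murine retroviruses, had a mean of 6.61. Zfp398, Zfp882, Zfp287, Zfp383, Zfp692, Zfp407, Zfp667, Zfp935, Zfp612 and Zfp369 had means between 6.34 and 5.52. Zfp652, whose human counterpart represses transcription together with CBFA2T3, followed at 5.47, and Zfp420, Zfp729a, Zfp606, Zfp987, Zfp362, Zfp956 and Zfp944 ran from 5.42 down to 5.17. Below 5 stood Zfp286, Zfp27, Zfp40, Zfp961, Zfp658, Zfp655, Zfp870, Zfp949, Zfp467, Zfp112, Zfp735, Zfp867, Zfp449, Zfp113, Zfp616, Zfp433, Zfp266, Zfp474, Zfp414 and Zfp551, with means of 4.87 down to 3.53.

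At the edge of the rule the signals lie close together. By the third highest of its 12 values, which decides the rule, Zfp735 was just inside at 4.01 (probe set 168869_at), followed by Zfp474 at 4.09, Zfp414 at 4.11 and Zfp616 at 4.12. Just outside were Zfp799 at 3.98, Zfp830 at 3.94, Zfp865 at 3.93 and Zfp346, which encodes a protein that binds double-stranded RNA, at 3.93. These values describe the rule and separate no expressed from silent genes.

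Of 61 Zfp genes listed for a role known from the literature, 16 had a probe set here. Those that reached the level were Zfp113, Zfp148, Zfp362, Zfp365, Zfp652, Zfp697, Zfp809, Zfp827 and Zfp831, 9 in all. Below it were 7 genes, namely Zfp346, Zfp367, Zfp423, Zfp592, Zfp593, Zfp618 and Zfp704. Zfp423 is a cofactor of EBF proteins in neural and fat cell development, and the human counterpart of Zfp592 is a partner of ZNF687, so one member of that pair had signal here and the other did not reach the level.

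Where a gene had more than one probe set, these often disagreed in level. Of the 22 such genes, 6 had all probe sets above the level (Zfp365, Zfp658, Zfp735, Zfp809, Zfp827 and Zfp935), 6 had some, and 10 had none. In 16 of the 22 the means differed by more than 1. Zfp692 had 5.86 on one probe set and 1.69 on the other, a gap of 4.18, and Zfp629 had 7.11 and 3.26. Zfp365 had 11.23 and 7.22. At the other end the gap was 0.06 for Zfp217, with both probe sets below the level, and 0.12 for Zfp658, with both above. Of the 133 probe sets 26 end in _r and 12 in _i, of which 10 and 3 reached the level, and how their probes were chosen was not examined. A further 13 of the 133 end in _f, for probes shared by a gene family, 6 of which reached the level. For those, and for the close paralogs among the KRAB genes, signal may come from more than one gene.

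**Figure D2:**
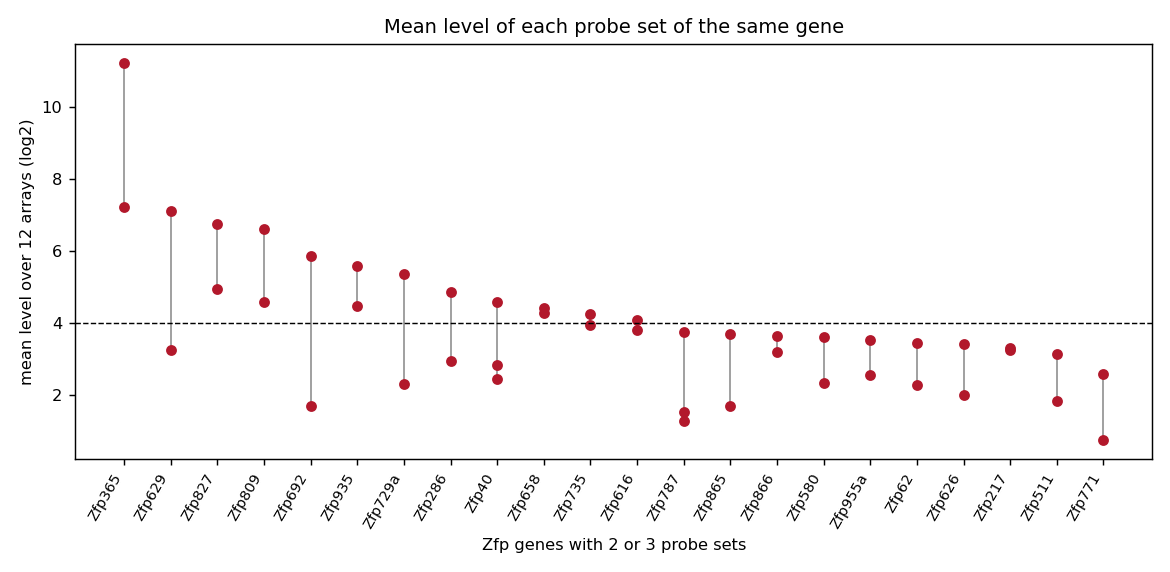
Mean log2 level over 12 arrays of each probe set, for the 22 Zfp genes with 2 or 3 probe sets. The probe sets of one gene lie up to 4.18 apart (Zfp692) and as near as 0.06 (Zfp217).

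Many of the genes lay close to one another in the genome, which the rule did not use. Chromosome 7 held 32 of the 109 genes (29.4%), against 8.0% of all genes on the array, followed by chromosomes 11 with 12 and 13 and 17 with 11 each. Of the 107 genes placed on the RefSeq assembly, 57 (53.3%) had another Zfp gene as a direct neighbour, against 3.06% of all protein-coding genes. Of those 57, 22 (38.6%) reached the level, and of the 50 without such a neighbour 24 (48.0%) did. The RefSeq table lists 107 of the genes as protein coding and 2, Zfp783 and Zfp85os, as long non-coding RNA.

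The second result is how the signals varied over the arrays. Of the 52 probe sets above the level 17 stayed within 0.5 over all 12 arrays, and 21 spanned more than 1. Over these 52 probe sets the mean level was 4.85 on mutant kainate replicate 3 and 5.20 to 5.42 on the other 11 arrays. That array held the lowest value of 21 of the 52 (40.4%), against 38.9% of all probe sets tested, so the low readings were not a property of the Zfp genes alone.

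**Figure D3:**
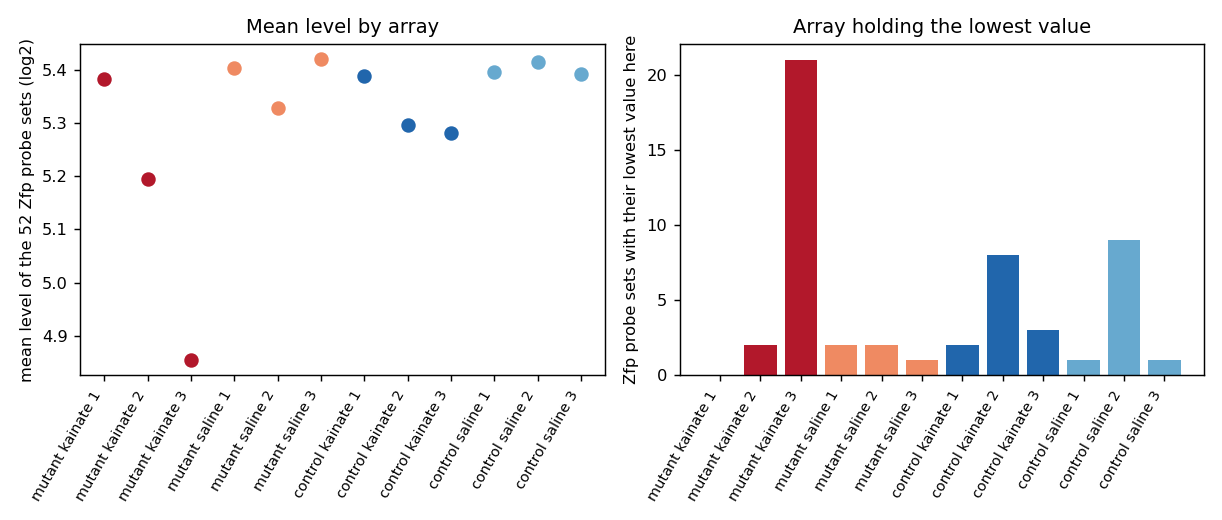
Mean log2 level of the 52 Zfp probe sets above the level on each array (left) and the number of them with their lowest value on that array (right). Mutant kainate replicate 3 stands at 4.85 and holds the lowest value of 21.

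The 5 Zfp genes with the widest range all had their lowest value on that array. Zfp831 read 7.80, 6.92 and 4.77 on mutant kainate, 7.89, 6.47 and 6.96 on mutant saline, 7.93, 7.48 and 7.05 on control kainate, and 8.07, 7.28 and 6.96 on control saline. In each group its replicate 1 array was the highest. Zfp407 read 6.06, 5.67 and 3.25 on mutant kainate, 6.21, 5.63 and 6.11 on mutant saline, 6.20, 6.08 and 6.12 on control kainate, and 6.00, 6.22 and 5.98 on control saline. The other 3 were Zfp692, Zfp449 and Zfp433, which read 4.33, 2.55 and 2.42 on mutant kainate replicate 3 and had ranges of 2.49, 2.26 and 2.23. Any difference that includes mutant kainate is given below with this in view.

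The response to kainate in control mice moved no Zfp gene past the test. None of the 52 probe sets passed an adjusted p under 0.05 in limma, in either direction, against 0.0282% of all 3541 probe sets tested higher and 0% lower. At an unadjusted p under 0.05 there were 3, all lower in kainate, which is 5.77% against 4.46% of all (1.78% higher and 2.68% lower). Groups did not overlap for 1 Zfp probe set higher after kainate (6.02% of all probe sets) and 4 lower (4.63%). The 3 and the 4 both include Zfp551, which reached log2 4 on saline arrays alone, so its direction is partly set by the filter. The median difference was -0.02 over the 52 and 0.01 over all, and 33 of the 52 (63.5%) were below 0, against 46.9% of all. In replicate 1, 19 of the 52 were below 0 (36.5%, against 31.1% of all), and in replicates 2 and 3, 38 were (73.1%, against 57.5%).

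Zfp956 read 5.15, 4.85 and 5.07 on control kainate arrays, against 5.32, 5.56 and 5.26 on control saline arrays. The kainate arrays were all lower, by 0.35 ± 0.14 on average (difference -0.35, SE; limma adjusted p = 1; -0.16 in replicate 1 and -0.45 in replicates 2 and 3). Zfp362 read 5.14, 5.07 and 5.11 on control kainate, against 5.15, 5.52 and 5.38 on control saline, a difference of -0.24 ± 0.12 (adjusted p = 1), of which -0.01 was seen in replicate 1 and -0.36 within the others. Zfp827 differed by -0.24 ± 0.17 at 139290_at (adjusted p = 1), with -0.23 in replicate 1 and -0.25 in replicates 2 and 3, and by 0.14 ± 0.28 at 130263_at. Zfp551 differed by -0.75 ± 0.30 (adjusted p = 1; -0.41 and -0.92), but the 3 arrays on which it reached log2 4 were all saline arrays, so it entered the test only through the treatment where it is high, and the direction is partly set by the filter. It read 2.92, 3.26 and 3.26 on control kainate, against 3.33, 4.18 and 4.17 on control saline. In the opposite direction Zfp266 read 4.31, 4.52 and 4.48 on control kainate, against 4.17, 4.07 and 4.19 on control saline.

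In mutant mice the kainate arrays were lower at more Zfp probe sets, and again none passed. Against 0.0282% of all probe sets called higher and 0% called lower, 0 of the 52 were called in either direction in limma. At an unadjusted p under 0.05 there were 6, all lower, which is 11.5% against 8.47% of all (1.55% higher and 6.92% lower). Groups did not overlap for 9 Zfp probe sets lower in kainate (8.44% of all) and 0 higher (1.67%). The 9 include Zfp551, which entered the test through saline arrays alone, so its direction is partly set by the filter. The median difference was -0.17 over the 52 and -0.08 over all, with 41 of 52 (78.8%) and 73.5% below 0. Without mutant kainate replicate 3 the medians were -0.09 and -0.05.

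Zfp827 (139290_at) showed the comparison and its dependence on single arrays. It read 6.77, 6.27 and 6.00 on mutant kainate, against 6.82, 6.84 and 7.05 on mutant saline. All 3 kainate arrays were lower, by -0.56 ± 0.17 (adjusted p = 0.579 in limma), with -0.05 in replicate 1 and -0.81 in replicates 2 and 3. Without mutant kainate replicate 1 the difference was -0.77 and passed (adjusted p = 0.0181), as did that of Zfp433, at -1.41 (adjusted p = 0.0356). Zfp433 had -0.82 with all arrays, 0.19 in replicate 1 and -0.29 without mutant kainate replicate 3 (adjusted p = 0.702), where its value was 2.42. Zfp827 had -0.39 without mutant kainate replicate 3 (adjusted p = 0.576) and -0.27 after quantile normalization. Its second probe set, 130263_at, read 5.12, 4.71 and 3.79 on mutant kainate and 5.18, 4.79 and 5.01 on mutant saline, groups that overlap.

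Zfp935 (141163_r_at) read 5.52, 5.54 and 5.47 on mutant kainate, against 5.68, 5.92 and 5.78 on mutant saline. The difference was -0.28 ± 0.08 (adjusted p = 0.579 in limma; -0.16 in replicate 1, -0.34 in replicates 2 and 3), without mutant kainate replicate 3 it was -0.26, and after quantile normalization it was near 0, at -0.03 (adjusted p = 0.976). Zfp870 read 4.34, 4.15 and 4.12 on mutant kainate, against 4.57, 4.45 and 4.64 on mutant saline, a difference of -0.35 ± 0.11 (adjusted p = 0.579; -0.23 and -0.41). In both genes every kainate array was below every saline array. Zfp287 read 5.95, 5.71 and 4.72 on mutant kainate, against 6.08, 6.01 and 6.34 on mutant saline. Its difference of -0.68 ± 0.28 (adjusted p = 0.579; -0.13 and -0.96) was -0.31 without mutant kainate replicate 3.

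Whether kainate acted differently on the Zfp genes in the mutants was asked with the interaction, the difference in mutants minus that in controls. No Zfp probe set passed, as no probe set of the array did (0% in either direction), and 0 of the 52 had an unadjusted p under 0.05 in limma, against 0.875% of all (0.198% higher and 0.678% lower). The values were below 0 for 37 of the 52 (71.2%) and for 73.5% of all, with medians of -0.07 and -0.09. By size of the test statistic Zfp935 (141163_r_at) came first, at -0.20 ± 0.11 (adjusted p = 0.973; -0.24 in replicate 1 and -0.18 in replicates 2 and 3), and had -0.0029 after quantile normalization. Zfp827 (130263_at) had -0.60 ± 0.39, Zfp809 (131001_r_at) -0.73 ± 0.51 and Zfp987 -0.23 ± 0.17 (each adjusted p = 0.973). Without mutant kainate replicate 3 these 3 were -0.22, -0.19 and -0.14. On all arrays the other probe sets of these genes had -0.31 ± 0.24 for Zfp827 (139290_at) and -0.03 ± 0.23 for Zfp809 (131000_f_at). For Zfp935 the other probe set (141162_f_at) had -0.15 ± 0.10.

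**Figure D4:**
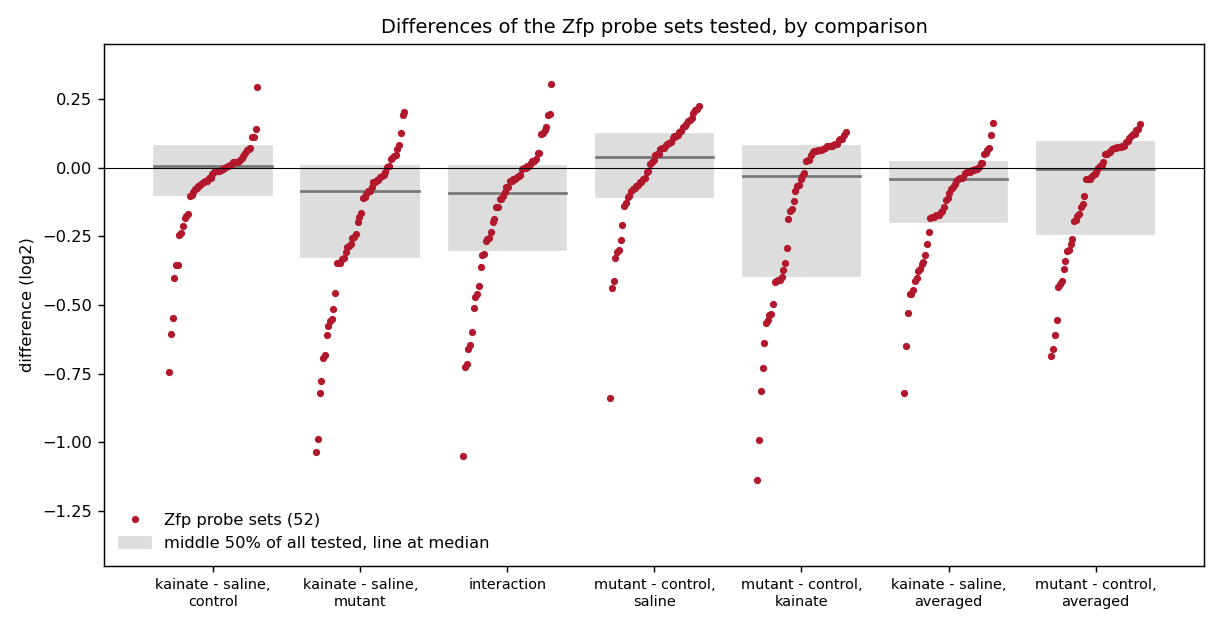
Log2 difference of each of the 52 Zfp probe sets tested in each comparison, the group named first minus the second, with the interquartile range of all probe sets tested (grey band) and their median (grey line). No point passed the adjusted p threshold, and the Zfp medians stayed between -0.17 and 0.04.

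Over both genotypes, with 6 kainate arrays against 6 saline arrays, most Zfp probe sets had a value below 0 after kainate and none passed. Among all probe sets 0.141% were called higher and 0% lower, and of the 52 none was called in limma. At an unadjusted p under 0.05 there were 9, all lower (17.3%, against 11.3% of all, 3.19% higher and 8.11% lower). These 9 include Zfp551, which entered the test through saline arrays alone, so its direction is partly set by the filter. The median was -0.10 against -0.04 for all, and 43 of the 52 (82.7%) were below 0 against 68.4%. The shift was smaller when mutant kainate replicate 3 and the array labelled control kainate replicate 3 were left out, with medians of -0.04 and -0.02 and 36 of 52 (69.2%) below 0 against 59.6%. In replicate 1 the medians were -0.02 and 0.00, and in replicates 2 and 3 -0.16 and -0.07. The β-actin control probe sets, whose 3′ minus 5′ signal is a sign of RNA quality, had values of 2.20 to 2.44 on the kainate arrays of replicates 2 and 3, against 1.74 to 1.83 on the saline arrays of those replicates. In replicate 1 they were 1.61 and 1.77 on kainate arrays, against 2.00 and 1.92 on saline arrays. The part of this in the Zfp values was not tested.

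Of these, 4 probe sets picked after their values were seen had differences below 0 in both genotypes. Second probe sets went the other way in controls for Zfp827 (130263_at, 0.14) and Zfp935 (141162_f_at, 0.03). Zfp870 was lower by -0.35 ± 0.08 (adjusted p = 0.297 in limma; -0.28 in replicate 1 and -0.39 in replicates 2 and 3). On control arrays it read 4.27, 4.08 and 4.03 after kainate and 4.60, 4.58 and 4.27 after saline, so the lowest saline array met the highest kainate array. Zfp956 had -0.34 ± 0.10 (adjusted p = 0.349; -0.08 and -0.48), Zfp935 -0.18 ± 0.05 (adjusted p = 0.349; -0.04 and -0.25; -0.02 after quantile normalization) and Zfp827 -0.40 ± 0.12 (adjusted p = 0.349; -0.14 and -0.53). Without mutant kainate replicate 1 Zfp827 passed, at -0.51 (adjusted p = 0.0218). The dim Zfp551 was the only Zfp probe set with no overlap between the 6 and the 6 arrays, at -0.65 ± 0.21 (adjusted p = 0.349), where 0.452% of all did so lower and 0.395% higher, and as above it entered the test through saline arrays alone. Egr3, a zinc finger gene of another family and a known early response gene, was higher in the same comparison by 1.64 ± 0.19 (adjusted p = 0.00704; 1.55 in replicate 1 and 1.68 in replicates 2 and 3).

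**Figure D5:**
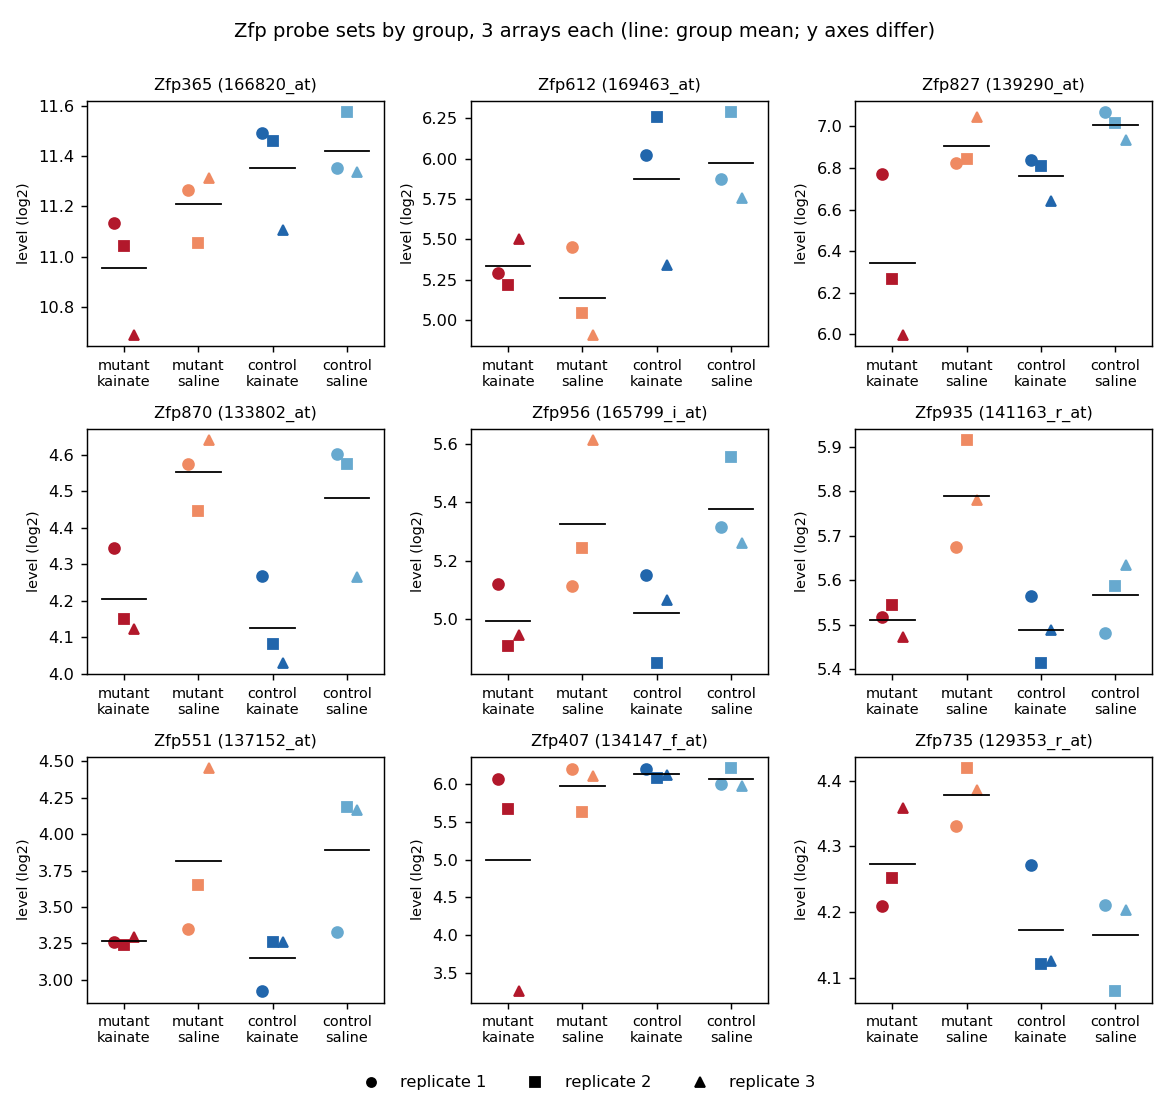
Log2 level on each array for Zfp genes named in the comparisons, by group (points: 3 arrays; line: group mean; the y axes differ between panels). Zfp612 is lower on all mutant saline arrays than on all control saline arrays, and Zfp827 and Zfp407 spread most in mutant kainate.

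Between genotypes after saline, the Zfp probe sets differed in both directions and none passed. No probe set of the array was called (0% in either direction), so the count of 0 for the 52 is that of the whole table. At an unadjusted p under 0.05 in limma there were 6, of which 5 were higher and 1 lower in mutants (11.5%, against 12.1% of all, 10.7% higher and 1.41% lower). Groups did not overlap for 17 Zfp probe sets higher in mutants and 4 lower, where 29% of all were higher and 5.11% lower. The 17 include Zfp735 at 168869_at, which reached log2 4 on mutant arrays alone, so its direction is partly set by the filter. The medians were 0.04 over the 52 and over all, and 23 of the 52 (44.2%, against 41.3% of all) were below 0. Among the Zfp probe sets with a mean under 4.5, 14 of 20 were above 0 (80.5% of all probe sets in that range), and of those at 5.5 or more 8 of 19 were (38.8%). The direction thus varied with signal over the whole table.

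Zfp612 had the largest moderated t of these. It read 5.45, 5.04 and 4.91 on mutant saline, against 5.87, 6.29 and 5.76 on control saline. All mutant arrays were lower, by -0.84 ± 0.25 (adjusted p = 0.385 in limma; -0.42 in replicate 1 and -1.05 in replicates 2 and 3). After kainate the mutant arrays read 5.29, 5.22 and 5.50, against 6.02, 6.26 and 5.34 in control kainate, where the low value is that of the array labelled control kainate replicate 3. Over both treatments the difference was -0.69 ± 0.17 (adjusted p = 0.247; -0.58 and -0.74). Without that array it was -0.82 (adjusted p = 0.104), and without it and mutant kainate replicate 3, with replicate 1 against the others as a block, -0.86 (adjusted p = 0.0634). These arrays hold the lowest control value and the highest mutant value of Zfp612, so leaving them out had to enlarge the difference.

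The probe sets higher in mutant saline differed by small amounts. Zfp735 (129353_r_at) read 4.33, 4.42 and 4.39 on mutant saline, against 4.21, 4.08 and 4.20 on control saline, a difference of 0.21 ± 0.07 (adjusted p = 0.385 in limma; 0.12 in replicate 1 and 0.26 in replicates 2 and 3). Zfp935 (141162_f_at, a family probe set) had 0.21 ± 0.07 (adjusted p = 0.385; 0.21 and 0.21). Zfp658 (167194_r_at) had 0.20 ± 0.07 (adjusted p = 0.385; 0.11 and 0.24). All 3 lie in the range of dim signal, where most probe sets of the array read higher in mutants. The brighter probe set of Zfp935, 141163_r_at, was also higher, by 0.22 ± 0.08 (adjusted p = 0.385 in limma; 0.19 in replicate 1 and 0.24 in replicates 2 and 3). Its mean level was 5.59, in the range of 5.5 or more, where 38.8% of all probe sets were above 0.

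After kainate the mutant and control groups differed at few Zfp probe sets and none passed, on an array where no probe set did (0% in either direction). At an unadjusted p under 0.05 in limma there were 3, all lower in mutants (5.77%, against 4.72% of all, 0.904% higher and 3.81% lower). Groups did not overlap for 2 higher (2.43% of all) and 2 lower (3.78%). Of the 52, 28 were below 0 (53.8%, against 53.5% of all). The medians were -0.04 over the 52 and -0.03 over all, and without mutant kainate replicate 3 they were 0.02 and 0.02. Zfp266, the gene with the full CREB site and a signal above the level, read 4.15, 4.15 and 3.31 on mutant kainate, against 4.31, 4.52 and 4.48 on control kainate. Its difference of -0.56 ± 0.29 (adjusted p = 0.55; -0.15 in replicate 1 and -0.77 in replicates 2 and 3) was -0.29 without mutant kainate replicate 3. On mutant saline it read 3.20, 4.05 and 4.25, against 4.17, 4.07 and 4.19 on control saline, so those groups overlapped.

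Zfp407 differed by -1.14 ± 0.59 after kainate (adjusted p = 0.55 in limma), a value carried by the reading of 3.25 on mutant kainate replicate 3. It was -0.13 in replicate 1, -1.64 in replicates 2 and 3 and -0.26 without that array. The probe sets higher in mutants, Zfp474 at 0.08 ± 0.07 (adjusted p = 0.558) and Zfp362 at 0.07 ± 0.12 (adjusted p = 0.744), lay close to 0.

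Zfp365, chosen after its values were seen, was lower in mutants at 166820_at by -0.40 ± 0.15 after kainate (adjusted p = 0.55 in limma; -0.36 in replicate 1 and -0.42 in replicates 2 and 3). Over both treatments the difference was -0.30 ± 0.10 (adjusted p = 0.247; -0.22 and -0.35). After quantile normalization the 2 differences were -0.21 and -0.18. The group means were 10.95 ± 0.24 in mutant kainate, 11.21 ± 0.14 in mutant saline, 11.35 ± 0.21 in control kainate and 11.42 ± 0.13 in control saline (SD, n = 3 arrays each). Mutant and control arrays overlapped in the pooled comparison. Its second probe set, 133146_at, had means of 6.75 ± 0.17, 7.27 ± 0.53, 7.16 ± 0.25 and 7.71 ± 0.33 in the same order of groups. Without mutant kainate replicate 3 the difference after kainate at 166820_at was -0.27 (adjusted p = 0.998).

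Over both treatments no Zfp probe set was called between the genotypes, and no probe set of the array was (0% in either direction). At an unadjusted p under 0.05 in limma there were 13, of which 8 were higher and 5 lower in mutants (25%, against 19.1% of all, 14.3% higher and 4.8% lower). Zfp735 at 168869_at, also higher in mutants over both treatments, entered the test through mutant arrays alone, so its direction is partly set by the filter. The smallest adjusted p was 0.247. Zfp474 was the only Zfp probe set without overlap, higher by 0.11 ± 0.05 (adjusted p = 0.26; 0.04 in replicate 1 and 0.15 in replicates 2 and 3), where 0.339% of all did so in each direction. The mean level of Zfp474 was 4.05, in the range under 4.5 where 79.3% of all probe sets tested read higher in mutants. The medians were -0.02 and -0.01, and 28 of the 52 (53.8%, against 51.1% of all) were below 0. Gfap, by comparison, had means of 12.47 in mutant kainate, 12.57 in mutant saline, 11.99 in control kainate and 11.16 in control saline, and the summed level of the astrocyte markers ran from 11.63 to 13.06, 12.27 to 13.02, 11.54 to 13.00 and 10.89 to 11.63 in the same groups. The sum is mostly Gfap, and other astrocyte genes differed from it: Slc1a2 had means of 5.75, 5.85, 6.35 and 5.92 and Pla2g7 of 4.74, 4.47, 4.79 and 4.57 in those groups. The part of astrocyte content in the Zfp values was not tested.

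The genes that work with KRAB zinc finger proteins gave no call either. Of 41 genes listed for the TRIM28 co-repressor and the chromatin machinery it brings, 9 were measured above the level by 10 probe sets, and 0 were called in any of the 7 comparisons in limma, with 0 to 2 at an unadjusted p under 0.05. Trim28 itself (166206_f_at) had mean levels of 6.88 in mutant kainate, 6.79 in mutant saline, 7.13 in control kainate and 6.64 in control saline, and its difference after kainate in controls was 0.49 ± 0.25 (adjusted p = 1; 0.04 in replicate 1 and 0.71 in replicates 2 and 3). Dnmt3a, which encodes a DNA methyltransferase, had -0.56 ± 0.25 in that comparison (adjusted p = 1; -0.16 and -0.76). Among 186 genes of other C2H2 zinc finger families, 24 were measured above the level by 29 probe sets, and the call for Egr3 over both genotypes was the only one in the 7 comparisons.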

How the data were processed

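Hippocampal RNA was measured on 12 arrays, 3 for each of 4 groups taken from the sample labels. The deposited table holds log2 values made by the authors with GCRMA in R 2.4.1, per the submitters' processing notes; the GCRMA version is not given in the sources used here. The log2 scale was read from the values. They were used as deposited. Of 11934 probe sets 66 controls were left out, and the 3541 at log2 4 or more on 3 or more arrays were tested. Symbols came from the platform annotation, and all 133 Zfp probe sets matched the RefSeq gene table of GRCm38.p6 by gene ID and symbol. A further 5 probe sets with several symbols, a Zfp one among them, were not taken as members.

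All 12 arrays entered one limma 3.58.1 model in R 4.3.3 with a mean per group, no block and 8 residual degrees of freedom. Of 7 comparisons each was adjusted by Benjamini-Hochberg over the 3541 probe sets and called at adjusted p under 0.05, two-sided. The scripts were tested on simulated data. The 3 arrays per group limit the precision, and since each holds a pool of 3 animals the p-values reflect differences between pools.

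The genes, lists and tests were chosen with earlier results of these data known. The text names up to 4 Zfp probe sets per comparison with the largest moderated t and no overlap between groups, the 8 brightest, the 5 with the widest range, those nearest the level, genes with several probe sets and genes with known roles. Others are said to be chosen after their values were seen. Deviations from the group means correlated between same-numbered arrays (1, 2, 3) at 0.627, 0.383 and 0.458 in the control kainate comparison, 0.479, 0.0448 and -0.0779 in the mutant one, 0.855, 0.47 and 0.482 between genotypes under saline and 0.578, 0.333 and 0.19 under kainate. In all but the kainate comparison in mutants every correlation exceeded 0.1, the level set for treating the numbers as pairs. The rule cannot decide this, because replicate 1 stood apart in each group and deviations within a group sum to 0. Arrays numbered 2 and 3 can then correlate without being paired, and correlations between differently numbered arrays are not given. Protein features of the zinc finger proteins were planned and not analysed here.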

Additional observations from a re-analysis of the deposited data

How the results depend on the processing

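The count of Zfp probe sets called was 0 in all 7 comparisons. It stayed at 0 with replicate 1 against replicates 2 and 3 as a block, a split read from the arrays and not from the labels. The same held without a filter, with a filter at log2 5, with quantile normalization and with an intensity trend. The count was also 0 with that block and without mutant kainate replicate 3 and the array labelled control kainate replicate 3. With only the arrays compared it was 0 in the 4 comparisons between single groups, and this was not run for the other 3. With the replicate block, which treats same-numbered arrays as belonging together, the count was 0 in all 7 as well. The smallest adjusted p in limma was 0.906 and 0.452 for kainate in controls and in mutants, and 0.931 for the interaction. It was 0.542 for genotype after saline and again after kainate, 0.214 for pooled kainate and 0.237 for pooled genotype, so the block changed no call. Leaving out each array in turn gave 0 to 2 called for kainate in mutants, 0 to 1 for kainate over both genotypes and 0 in the other 5 comparisons. Both maxima came without mutant kainate replicate 1: Zfp827 and Zfp433 in mutants, and Zfp827 alone over both genotypes. Over all probe sets those fits called 0 to 67 and 5 to 58. Array weights called 17 Zfp probe sets for kainate in mutants, 7 for genotype after kainate, 15 for kainate and 17 for genotype over both, with 1007, 477, 1018 and 938 over all probe sets, against 1, 0, 5 and 0 without weights. These weights ran from 0.0567 for mutant kainate replicate 3 to 28.8 for mutant kainate replicate 2, and their estimation stopped before it converged. The 29 differences named kept their direction in all 581 recomputed values, but this was partly fixed in advance. On all arrays, the blocks, the filters and the intensity trend left the estimates unchanged, as did the use of only the arrays compared. Most were named because their groups did not overlap, so leaving out a single array could not reverse them. Of the recomputed values 13 passed the threshold. Those came from array weights or, for Zfp827, from leaving out mutant kainate replicate 1. The size of the named differences held less well: quantile normalization made 10 of the 29 smaller by over 1.5 times and 1 larger, Zfp935 (141163_r_at) most, and leaving out mutant kainate replicate 3 made 8 smaller. The number of Zfp probe sets that reach the level was 99 at log2 3 and 28 at log2 5, against 52 at log2 4, and 39 to 64 with other numbers of arrays asked at log2 4.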

Other observations

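The 81 Zfp probe sets that did not reach the level were not tested. Their genotype differences after saline were above 0 for 66 and below 0 for 15, with a median of 0.04 and a range of -0.30 to 0.19. After kainate 68 were above 0, with a median of 0.05. Their kainate differences had medians of 0.01 in mutants and 0.00 in controls. Values this close to the low end of the scale have little room to differ, and are given as a description.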
